A study of Mus musculus with 7 samples.

Results

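The Nr4a orphan nuclear receptors are encoded in the mouse by 3 genes, Nr4a1, Nr4a2 and Nr4a3, and were examined here for sites bound by Fos in the hippocampus. All peaks within 50 kb of the span of a gene were taken from 6 deposited peak lists, 1 per library, and 127 of the 111142 peaks qualified. Merged where they overlapped, they formed 74 of the 68873 regions of the series. The libraries came from chromatin immunoprecipitation followed by sequencing (ChIP-seq) with an antibody against Fos. Wild-type C57BL/6J mice aged 2 months received saline (3 libraries) or kainic acid (3 libraries), a convulsant that activates glutamate receptors. Kainic acid went into the peritoneum as 2 injections of 10 mg/kg, 30 min apart. Mice that reached seizure level 4 were used 1 hour after the earlier injection. An input library of saline chromatin is also labelled, and no peak list of it was used here. How many animals stand behind a library, and whether they were pooled, is not given in the labels, so p-values measure the spread between libraries only. Tissue of the whole hippocampus was used, so more cells with a bound site and more Fos at the site in each cell cannot be told apart.

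Nr4a receptors bind DNA through zinc fingers, and their ligand pocket is filled by bulky side chains, so their activity is set mainly by how much protein is made. In hippocampal neurons the genes are switched on quickly by synaptic activity, largely through the factor CREB and its coactivators acting on cyclic AMP response elements, and they are known for a part in long-term memory. Fos is made after the same kind of activity and joins a Jun protein to form AP-1. AP-1 binds the AP-1 site TGANTCA and, in some pairings, elements of the cyclic AMP response type.

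The promoters are shown first because Fos peaks there differed between the 3 genes. The 250 bases before the start site, from RefSeq on GRCm38.p6, are written 5′ to 3′ on the strand of each gene. Capitals mark the core of the cyclic AMP response element, CGTCA or its reverse complement TGACG, which was searched on both strands. The stretches lie at chr15:101266596-101266845 (plus strand) for Nr4a1, chr2:57124004-57124253 (minus strand) for Nr4a2 and chr4:48045055-48045304 (plus strand) for Nr4a3.
Nr4a1: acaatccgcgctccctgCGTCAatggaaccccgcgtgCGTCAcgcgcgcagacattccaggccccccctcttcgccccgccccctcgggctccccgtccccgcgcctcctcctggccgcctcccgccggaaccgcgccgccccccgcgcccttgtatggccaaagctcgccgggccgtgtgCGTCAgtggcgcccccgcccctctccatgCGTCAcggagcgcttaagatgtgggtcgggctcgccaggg
Nr4a2: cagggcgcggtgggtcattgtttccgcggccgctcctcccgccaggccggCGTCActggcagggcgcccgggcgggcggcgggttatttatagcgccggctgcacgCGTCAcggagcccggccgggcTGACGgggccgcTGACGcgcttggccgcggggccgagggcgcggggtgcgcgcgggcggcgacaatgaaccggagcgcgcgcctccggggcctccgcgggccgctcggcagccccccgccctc
Nr4a3: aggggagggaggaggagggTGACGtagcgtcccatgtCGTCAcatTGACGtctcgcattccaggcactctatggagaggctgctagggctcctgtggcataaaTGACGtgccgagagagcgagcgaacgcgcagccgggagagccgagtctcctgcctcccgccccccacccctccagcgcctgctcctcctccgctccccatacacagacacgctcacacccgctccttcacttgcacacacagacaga

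Each of the 3 promoters held 4 cores. In Nr4a1 they began 233, 213, 69 and 40 bases before the start site, in Nr4a2 200, 144, 123 and 111 bases before it, and in Nr4a3 231, 213, 205 and 147 bases before it. All 4 cores of Nr4a1 read CGTCA on the strand of the gene, whereas Nr4a2 had 2 and Nr4a3 had 3 in the TGACG orientation. Among 32851 promoters cut to the same length, 17.8% held at least 1 core and 45 promoters (0.137%) held 4 or more. A full element counts as 2 cores. The core was chosen for display after the sequences had been seen, so this share is a description. The core contains a CG, and the 3 promoters were rich in G and C (74.4%, 80.0% and 63.6% for Nr4a1, Nr4a2 and Nr4a3, against a median of 52.4% over all promoters). Neither the AP-1 site TGANTCA nor the full element TGACGTCA was found on either strand in any of the 3 stretches. These letters occur in 6.75% and 1.55% of all promoters.

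At Nr4a1 the promoter was covered in 2 of the 3 kainic acid lists, by a peak of fold 9.17 in replicate 2 and of fold 3.92 in replicate 3. Fold here is the authors' ratio of a peak to its local background within a library, and it is not scaled between libraries. The summits, where the reads pile up highest, lay 23 and 8 bp after the annotated start site in replicates 2 and 3. A pileup of 46 and 27 reads was solved for them from the deposited fold and p-value. The replicate 2 peak ranked 4524 of 63197 by fold and the replicate 3 peak 16038 of 29650, so it was among the stronger peaks in the former library only.

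At Nr4a2 the promoter was covered in replicate 2 alone (fold 4.74, rank 26340, 29 reads), with the summit 183 bp before the start site. At Nr4a3 no kainic acid list had a peak over the promoter. Over all 300-base promoters in the RefSeq table, 3.34% were covered in at least 2 kainic acid lists and 11.0% in at least 1. No saline list had a peak over any of the 3 promoters, and saline replicate 2 covered 4.53% of all promoters.

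**Figure D1:**
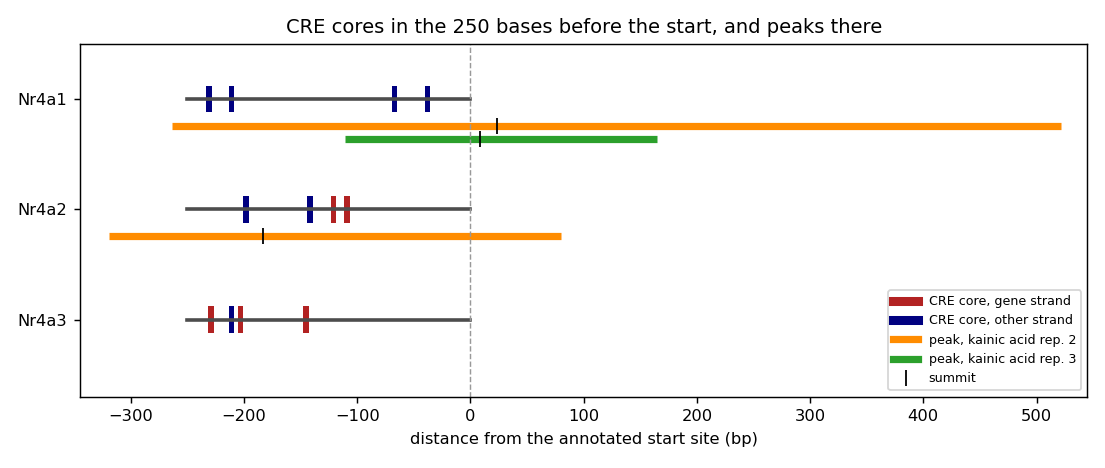
Cores of the cyclic AMP response element (CRE) in the 250 bases before the start site (horizontal line) of each Nr4a gene, with the Fos peaks that overlap these bases drawn below at full width. The horizontal axis is the distance from the annotated start site in bp and short black marks are peak summits. Each line carries 4 cores, and the number of lists with a peak goes from 2 at Nr4a1 to 1 at Nr4a2 and 0 at Nr4a3.

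The first comparison asks whether more Fos peaks were called around the Nr4a genes after kainic acid. In all, replicates 1, 2 and 3 had 15009, 63197 and 29650 peaks with kainic acid and 7, 3277 and 2 with saline, so the length of a list limits what any gene can show. Around Nr4a1 (chromosome 15, 101253902 to 101274795 on GRCm38) there were 4, 28 and 12 peaks in kainic acid replicates 1, 2 and 3 and 0 in each saline list. Around Nr4a2 (chromosome 2, 57106830 to 57124003) the kainic acid lists had 5, 11 and 9 peaks and each saline list 0. Around Nr4a3 (chromosome 4, 48045078 to 48086447) they had 7, 33 and 16 peaks, and the saline lists had 0, 2 and 0. Replicate 2 was highest and replicate 1 lowest at each gene, which is also the order of the list lengths, and no saline list reached a kainic acid list.

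The mean numbers of peaks in kainic acid were 14.7 ± 12.2 (SD, n = 3) for Nr4a1, 8.33 ± 3.06 for Nr4a2 and 18.7 ± 13.2 for Nr4a3. In saline the means were 0, 0 and 0.667 ± 1.15. The differences were 14.7, 8.33 and 18 peaks, and for the 3 genes together 41 peaks. Each was larger than the SD of either group. By a two-sided exact permutation test over the libraries p was 0.1 for each (0.1 after Benjamini-Hochberg adjustment over 4 values), the smallest p that 3 libraries against 3 allow. For comparison, 33.5% of 21887 protein-coding genes had more peaks in every kainic acid list than in any saline list, which all 3 Nr4a genes did too. Saline replicates 1 and 3, with 7 and 2 peaks in all, could not have shown binding at most genes.

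As a share of its list, replicate 2 was highest at Nr4a1 and lowest at Nr4a2. For Nr4a1 it was 0.0267%, 0.0443% and 0.0405% of the peaks of replicates 1, 2 and 3. For Nr4a2 it was 0.0333%, 0.0174% and 0.0304%, and for Nr4a3 0.0466%, 0.0522% and 0.0540%. At every gene the 95% Clopper-Pearson intervals of the 3 shares overlapped, which with so few peaks does not show that the shares are equal. Together the 3 loci held 0.107%, 0.114% and 0.125% of the kainic acid lists. In saline replicate 2 it was 0.0610% (0.00739 to 0.220), an interval that includes the 3 kainic acid shares. Intervals cover counting error only.

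**Figure D2:**
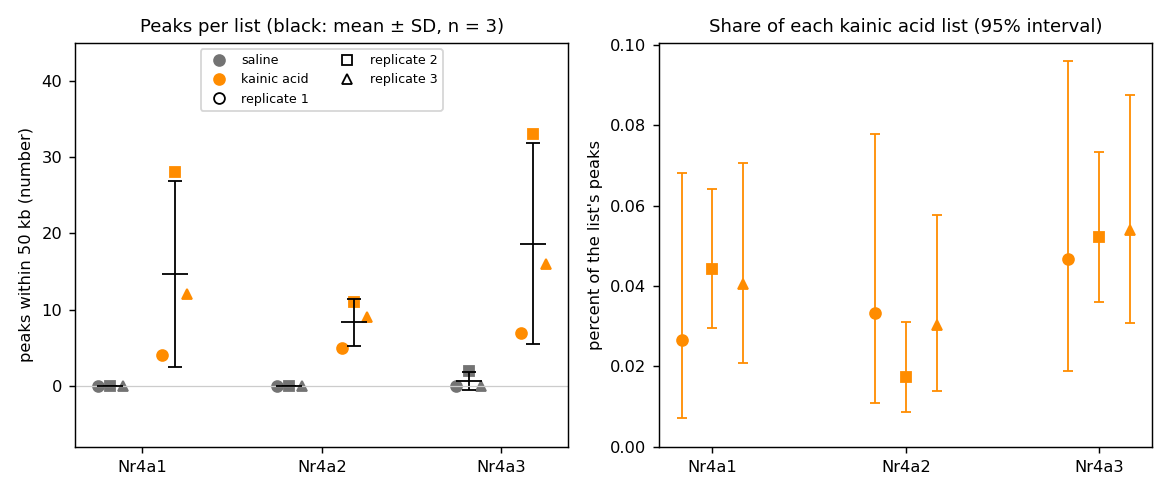
Left, number of Fos peaks within 50 kb of each gene in each list, with the mean and SD of 3 libraries in black. Right, the same numbers as a percentage of all peaks of each kainic acid list, with 95% Clopper-Pearson intervals. Kainic acid replicate 2 is highest in number at each gene (28, 11 and 33 peaks), while as a share of the list the intervals of the 3 replicates overlap.

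Replicate support was then counted over the merged regions. Each of the 74 regions had a kainic acid peak. Support came from 3 kainic acid libraries for 12 of them, from 2 for 20 and from 1 for 42. The 32 with 2 or more supporting libraries, called shared regions from here on, were 43.2% (31.8 to 55.3) of the 74, against 40.3% of all regions with a kainic acid peak. The 12 in all 3 lists were 16.2%, against 17.9% of all such regions. By gene, 10 of 29 regions were shared at Nr4a1, 8 of 12 at Nr4a2 and 14 of 33 at Nr4a3. These shares of 34.5% (17.9 to 54.3), 66.7% (34.9 to 90.1) and 42.4% (25.5 to 60.8) have overlapping intervals, all of which include the background. Of the 42 regions in a single kainic acid list, 38 came from replicate 2, 4 from replicate 3 and 0 from replicate 1. No shared region had a saline peak (0 of 32, 100% without one, interval 89.1 to 100), against 98.0% of all shared regions of the series.

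Beside the rest of the genome, the Nr4a loci held many shared regions. A protein-coding gene had a median of 1 shared region within 50 kb (quartiles 0 and 3), and 62.7% of them had at least 1. As many shared regions as Nr4a3 (14) were found at 1.10% of protein-coding genes, as many as Nr4a1 (10) at 2.39% and as many as Nr4a2 (8) at 4.40%. Per 100 kb of window the numbers were 9.90, 8.27 and 6.83, against a median of 0.872, and 0.110%, 0.384% and 1.01% of genes were as dense. Windows of neighbouring genes overlap, so genes are not independent here, and no test was made.

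The standing of the 3 genes depended on the reach, the threshold and the libraries. At a reach of 10 kb, 40.0% of genes had as many shared regions as Nr4a1 (1), 3.87% as many as Nr4a2 (6) and 1.31% as many as Nr4a3 (11). For Nr4a2, 9.75% of genes had as many regions without kainic acid replicate 2 (3 regions), 11.3% without replicate 3 (3 regions) and 7.65% without replicate 1 (6 regions). With −log10 q of at least 10 a single region was left at Nr4a2, and 36.1% of genes had as many. At that threshold Nr4a3 kept 2 regions, which 14.5% of genes matched, and Nr4a1 kept 4, which 2.80% matched. Across the libraries left out, Nr4a1 stood between 2.19% and 5.78% and Nr4a3 between 0.987% and 1.82%, the highest of these without replicate 3 for Nr4a1 and without replicate 2 for Nr4a3. Counting regions in all 3 lists, Nr4a3 had 6, Nr4a1 4 and Nr4a2 2, which 1.72%, 4.86% and 19.9% of genes matched, while 42.5% of genes had at least 1 such region.

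**Figure D3:**
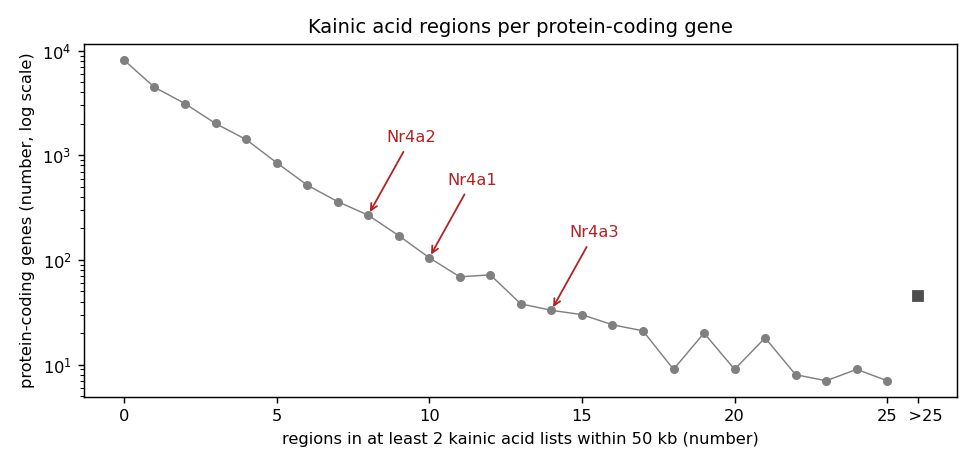
Number of protein-coding genes (vertical, log scale) by how many shared regions lie within 50 kb (horizontal), with genes of more than 25 regions pooled in the square. Arrows mark Nr4a2, Nr4a1 and Nr4a3 at 8, 10 and 14 regions, right of the median of 1.

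The shared regions lay at different places around the 3 genes. At Nr4a1 a single shared region of 10, the one at the promoter, was inside the gene span, with 5 upstream and 4 downstream. At Nr4a2 the split was 4 inside, 2 upstream and 2 downstream, and at Nr4a3 it was 10 inside, 4 upstream and 0 downstream. The span of Nr4a3 is 41.4 kb, longer than the 20.9 kb of Nr4a1 and the 17.2 kb of Nr4a2. Within 10 kb of the span there were 1, 6 and 11 shared regions for Nr4a1, Nr4a2 and Nr4a3, against 40.0% of genes with at least 1 at that reach. The RefSeq table gives neither exons nor introns, so a position inside a span is not assigned to either.

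**Figure D4:**
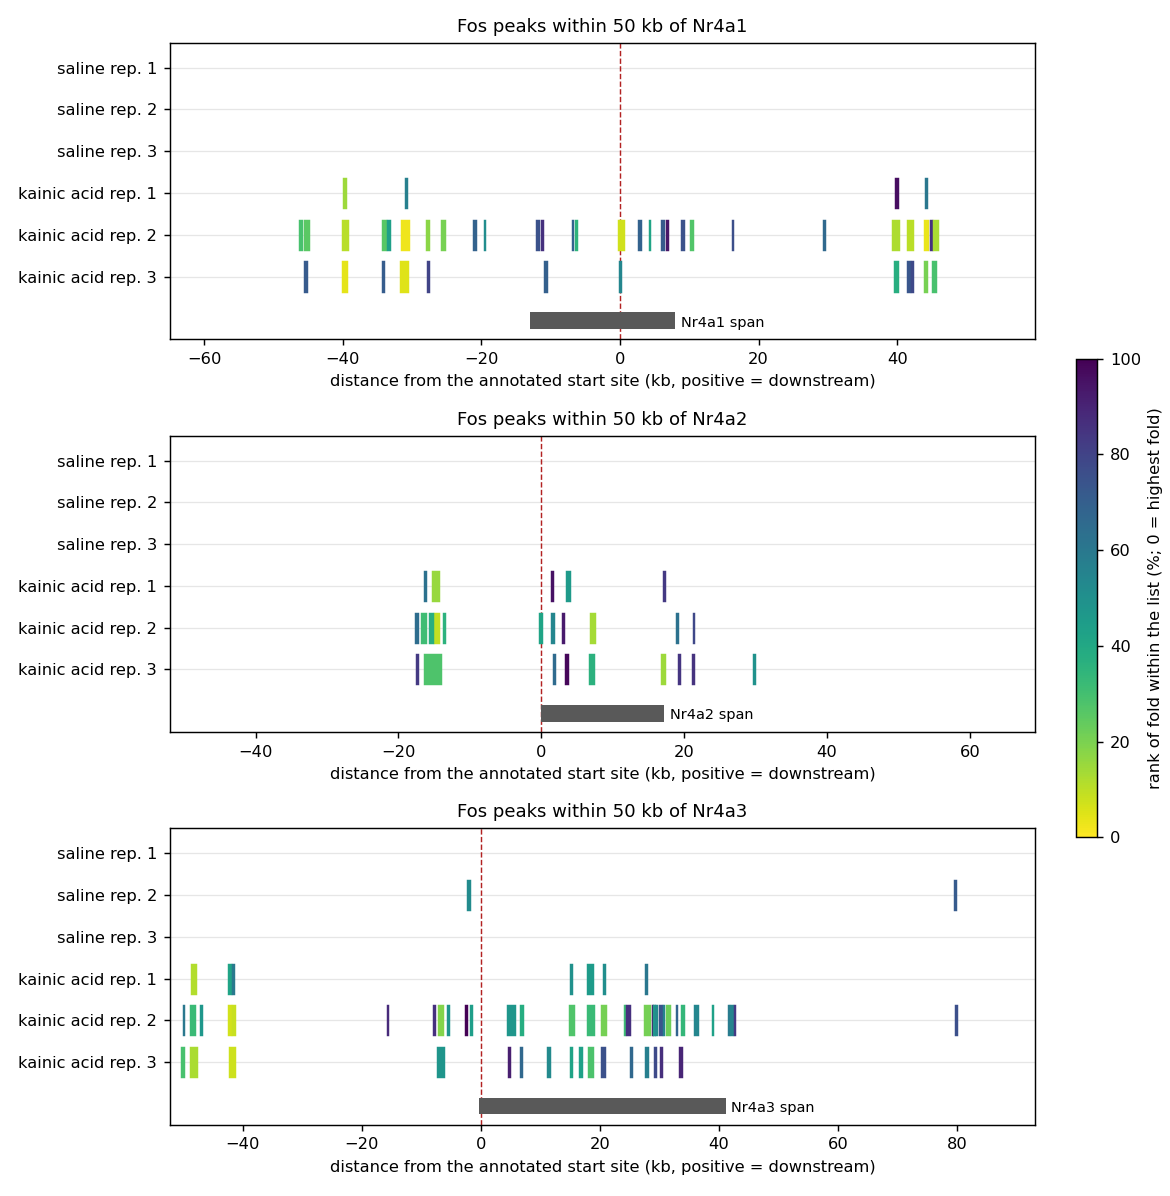
Fos peaks of each list within 50 kb of Nr4a1, Nr4a2 and Nr4a3, drawn by distance from the annotated start site in kb along the direction of the gene, with a row for each library. Colour gives the rank of the fold within the list in percent, where 0 is the highest fold, and the grey bar is the span of the gene. Saline rows are empty apart from 2 peaks of replicate 2 at Nr4a3, and shared regions fall in flanking groups at Nr4a1 and along the gene body at Nr4a3.

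The Nr4a1 regions formed a group on either side of the gene. From the promoter there was a stretch of 27.2 kb upstream and of 38.8 kb downstream without a shared region, although single lists had peaks in both. The start site used for Nr4a1, 101266846, lies inside its span, which begins at 101253902. Part of the upstream stretch is therefore within the span, and no promoter at the beginning of the span was examined. Of the 10 shared regions, 9 were closer to another protein-coding gene than to Nr4a1. The 5 upstream ones lay at or near Grasp, which encodes a scaffold protein of the postsynapse, and the 4 downstream ones had Smim41, a small membrane protein gene, as the nearest. The window does not say which gene a region acts on.

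The strongest region of the Nr4a1 window, and of all 3 windows by mean rank, was inside Grasp (chromosome 15, 101226765 to 101227614). Its fold was 6.14, 8.03 and 8.24 in kainic acid replicates 1, 2 and 3, at ranks 2214, 6784 and 1237, with pileups of 32, 47 and 62 reads. Expressed as a percentage of the list, where 0 is the highest fold, the ranks were 14.8, 10.7 and 4.17, a mean of 9.89 ± 5.34 (SD, n = 3). The 3 libraries thus placed it in the upper part of their lists. Its summits lay 39.8 kb before the Nr4a1 start site and within 45 bp of each other.

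A second region, 2.43 kb past Grasp (chromosome 15, 101235186 to 101236377), showed folds of 4.21, 12.4 and 7.98. It ranked at 56.9%, 2.57% and 4.75%, so it stood high in replicates 2 and 3 and in the lower part of the list of replicate 1. Downstream, the region at 101310717 to 101311298 showed folds of 4.08, 11.6 and 5.36 (60.5%, 3.21% and 20.4%). The region at 101306122 to 101307096 had 2.93, 7.63 and 4.38 (96.3%, 12.4% and 37.4%). At both, replicate 2 was highest and replicate 1 lowest. The remaining 5 flanking regions were in replicates 2 and 3 only, with folds of 5.77 to 8.10 and 3.29 to 4.77. Inside the Nr4a1 span, 9 more regions were in a single list, 8 of them in replicate 2. Some of these 9 lay before the start site used.

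At Nr4a2, shared regions had their middle 15.4 and 17.5 kb before the start site. The stronger (chromosome 2, 57138042 to 57140775) was in all 3 lists with a fold of 6.07, 8.52 and 4.86, at ranks 2300, 5707 and 8331 and with 38, 57 and 50 reads. In percent the ranks were 15.3, 9.03 and 28.1, a mean of 17.5 ± 9.72 (SD, n = 3). The summits of the peak of highest fold in each of the 3 libraries lay within 88 bp. The region joins further peaks, with summits 15.6 and 16.2 kb before the start site in replicate 2 and 16.3 kb before it in replicate 1. This region and the next one outward, at 57141228 to 57141725, overlap the span of BB557941, a long non-coding RNA gene. Both, 2 of the 8 shared regions, were closer to another protein-coding gene than to Nr4a2, at 13.3 and 16.5 kb against 14 and 17.2 kb. That gene, LOC105244150 (57123334 to 57124694), overlaps the start site of Nr4a2.

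Inside Nr4a2 a region in all 3 lists lay 1.65 kb after the start site (57122053 to 57122655), with folds of 2.99, 4.3 and 3.58, at 95.5%, 54.1% and 65.6% of the lists. The region at 57116418 to 57117295 had 7.36 and 4.48 in replicates 2 and 3 and no peak in replicate 1. Replicate 2 had no peak in 2 other shared regions, 57119923 to 57120624 (4.51 and 2.49 in replicates 1 and 3) and 57106679 to 57107304 at the far end of the gene (3.52 and 5.93). Past that end, 1.69 and 3.93 kb from the gene, 2 weak regions were in replicates 2 and 3, with folds of 4.04 and 3.15 at the nearer and 3.51 and 3.14 at the farther.

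Beyond the windows only the nearest shared regions were looked up. Peaks of single lists there were not counted, nor how common such distances are. Past the downstream window of Nr4a2 the next shared region was 849 kb from the gene. Upstream the next was 58.2 kb away (chromosome 2, 57182230 to 57182843, in all 3 lists, mean rank 9.18%). On the downstream side of Nr4a3 the next shared region was 201 kb from the gene, and upstream the next was 89.6 kb away. For Nr4a1 the next ones were 61.6 kb upstream and 67.2 kb downstream. The outermost shared region counted for any gene lay 49.6 kb before Nr4a3, at 47994913 to 47995499.

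At Nr4a3 the 2 highest shared regions lay far upstream, outside any gene. The region 41.8 kb before the start site (chromosome 4, 48002929 to 48003993) showed folds of 4.64, 9.24 and 7.02, in replicate order, at 41.4%, 6.88% and 7.81% of the lists. Its mean rank was 18.7 ± 19.7 (SD, n = 3), and the summits of the peak of highest fold in each library lay within 39 bp of each other. Replicates 1 and 2 each had another peak in it, with a summit 41.6 kb before the start site. The region 48.2 kb before the start site (47996423 to 47997695) had 6.52, 5.24 and 6.16, at 11.5%, 32.4% and 12.6%. Here replicate 1 was the highest of the 3 by percentage of the list, which it was at 1 of the 12 regions in all 3 lists. The percentage depends on list length, and replicate 1 had the shortest kainic acid list. By plain rank number it was highest at others too, such as 57138042 to 57140775 at Nr4a2 (2300, 5707 and 8331). Closer in, the region 6.79 kb before the start site (48037898 to 48039140) had 6.52 and 4.06 in replicates 2 and 3 and no peak in replicate 1.

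Along the Nr4a3 gene body, 10 shared regions lay between 5.08 and 33.6 kb after the start site, and 4 of them were in all 3 lists. These 4 were at 48060089 to 48061032 (fold 4.36, 5.63 and 4.23), 48063191 to 48064311 (4.53, 5.26 and 4.85), 48065429 to 48066295 (4.32, 6.21 and 3.38) and 48072744 to 48073683 (4.08, 6.21 and 3.77). Their pileups ran from 16 to 28 reads. The median fold of the lists was 4.36, 4.40 and 3.97 in replicates 1, 2 and 3. All 4 lay above it in replicate 2, at 21.0% to 32.3% of the list, while in replicate 1 they ranked at 45.3% to 60.5% and in replicate 3 at 28.3% to 75.4%. The other 6 were in replicates 2 and 3 only. By mean rank the 10 regions of the body ran from 35.3% to 80.4%, so by this mean each stood lower than both far upstream regions (18.7% and 18.8%). In replicate 2 alone, the 4 body regions in all 3 lists ranked above the far upstream region at 47996423 to 47997695 (32.4%).

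**Figure D5:**
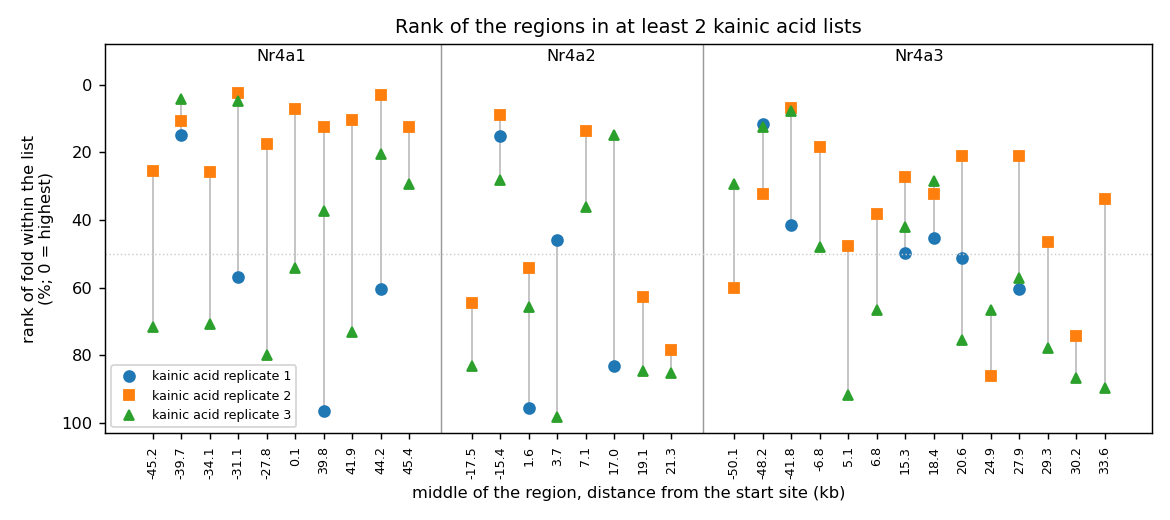
Rank of fold within the list, in percent with 0 as the highest fold, for the 32 shared regions, ordered along each gene by distance from its start site in kb. Points are libraries, grey lines join the libraries of a region, and a library without a peak has no point. Nr4a1 has 4 regions, Nr4a2 2 and Nr4a3 6 with all 3 points.

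Over all the kainic acid peaks of the 3 windows, those in a single list included, the median rank was 54.0%, 45.4% and 57.3% in kainic acid replicates 1, 2 and 3, where 50% would be the middle of the list. In the top 10% of their list were 0 of 16 peaks in replicate 1, 6 of 72 in replicate 2 and 3 of 37 in replicate 3. By mean rank of the strongest shared region, 19.9% of the 13733 protein-coding genes with one stood as high as Nr4a1, 35.5% as high as Nr4a2 and 38.6% as high as Nr4a3. The mean was taken over the kainic acid lists with a peak in the region, so a list without a peak did not lower it. The strongest regions of the 3 Nr4a genes were in all 3 lists, whereas those of other genes may be in 2. Pileups ran from 14 to 38 reads in replicate 1, 10 to 57 in replicate 2 and 15 to 62 in replicate 3.

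Summits were compared in the 12 regions of all 3 lists, using the peak of highest fold in each library. They lay 39 to 368 bp apart, with a median of 140.5 bp, against 122 bp over all 11937 such regions of the series. Summits lay within 200 bp in 8 of the 12 (66.7%), against 73.7% of all. They did so in 4 of 4 regions at Nr4a1, 1 of 2 at Nr4a2 and 3 of 6 at Nr4a3. By rank as a percentage of the list, replicate 2 stood highest in 9 of the 12 (75%), and in 71.7% of all such regions. That percentage depends on the length of the list, and replicate 2 had the longest.

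Both saline peaks near a member were in replicate 2 and in the Nr4a3 window. The first (chromosome 4, 48043043 to 48043574) had its summit 1.88 kb before the start site, with a fold of 4.11, 26 reads and rank 1706 of 3277. It overlapped a peak of kainic acid replicate 2 (fold 4.59, rank 27946 of 63197) and none of replicates 1 and 3. The 2 peaks met only at their edges, as the kainic acid peak ran from 48043554 to 48043842 with its summit 1.66 kb before the start site. The second (48124734 to 48125179) lay at the near end of Stx17, a SNARE protein gene of the autophagy pathway, with a fold of 3.70 and 21 reads. It too overlapped a peak of kainic acid replicate 2 alone (fold 3.67). Of all protein-coding genes, 30.2% had a peak of saline replicate 2 within 50 kb.

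Other genes of the pathway were counted in the same way, by whether they had a shared region within 50 kb (62.7% of protein-coding genes did). Among partners and corepressors, 4 of 5 genes had one, the exception being Rxra, which encodes a retinoid X receptor. Rxrb and Rxrg, the other retinoid X receptors, had 1 and 2, while the corepressor genes Rcor1 and Ncor1 had 4 and 9. Among upstream regulators it was 7 of 8, with a median of 3.5 regions. Srf, the gene of serum response factor, had none. Mef2c, Mef2d and Mef2a, of the MEF2 family of activity-dependent factors, had 9, 8 and 1. Creb1, the gene of CREB, had 3 and Crtc1, a CREB coactivator gene, had 5. Saline replicate 2 had peaks near 3 of the 8 upstream regulators. At Crtc1 it had 8, where kainic acid replicates 1, 2 and 3 had 2, 14 and 6.

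Among known targets of Nr4a receptors, 3 of 6 had a shared region. Th and Ddc, for enzymes of dopamine synthesis, and Vip, for a neuropeptide, had none, and Slc18a2, Slc6a3 and Ret had 2, 1 and 1. Among the other nuclear receptor genes, 14 of 16 had one, with a median of 2.5 and a maximum of 9. The exceptions were Nr2f1 and Nr2f2, the COUP-TF genes. None of these 16 reached the 10 of Nr4a1 or the 14 of Nr4a3. Nr3c2, the mineralocorticoid receptor gene, and Rora had 9, more than the 8 of Nr4a2. Thra, a thyroid hormone receptor gene, had 8, as many as Nr4a2. Per 100 kb, Nr1d1, a clock receptor gene, and Thra came closest to the members, at 6.51 and 6.24. These neighbours share most of their window. Saline replicate 2 had 6 peaks at each of them, whereas it had 0, 0 and 2 at Nr4a1, Nr4a2 and Nr4a3.

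The genes whose numbers of peaks over the 6 lists were most like those of a member were found by the summed difference in log2(number + 1). For Nr4a1 they were Uvrag, with the same numbers in all 6 lists, Cacna1d (difference 0.26) and Tmem117 (0.26). For Nr4a2 they were Fam171a1, also with the same numbers, Col27a1 (0.12) and Cmbl (0.12). For Nr4a3 no gene had the same numbers, and the nearest were Lamc1 (0.41), Ptprn2 (0.45) and Tenm4 (0.46). By mean rank of the strongest shared region, Lamc1, Ptprn2 and Tenm4 stood at 6.97%, 0.544% and 3.96%, all higher than the 18.7% of Nr4a3. Fam171a1, Col27a1 and Cmbl, at 5.78%, 12.2% and 1.96%, were higher than the 17.5% of Nr4a2. Against the 9.89% of Nr4a1, Cacna1d (2.19%) and Tmem117 (9.30%) were higher and Uvrag (22.6%) was lower.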

How the data were processed

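The data were 6 narrowPeak lists of Fos ChIP-seq, 1 per library, not pooled. Per the submitters' processing notes, Trim Galore 0.6.4, Bowtie2 2.3.4.3, MACS2, deepTools 3.5.0 and build mm10 were used, and the deposited peak names carry a mapping quality filter. Cutoff and control library are not given in the sources used here. The authors deposited, per peak, a fold (linear ratio over local background), −log10 p, −log10 q, a score (10 times −log10 q, rounded down) and a summit offset. These belong to 1 library each and were used only within a list. No read totals come with the lists, so the pileup under each of the 127 peaks was solved from the deposited fold and −log10 p as Poisson values (127 of 127 solved).

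Peaks of the 6 lists that share 1 bp or more were merged (Python 3.11.15, pandas 2.3.3). Gene spans and promoters came from RefSeq tables of GRCm38.p6, and all 3 genes matched by symbol. Numbers of peaks were compared by a two-sided exact permutation test over 20 assignments. Shares have 95% Clopper-Pearson intervals. The merging, counting and solving steps were tested on simulated data. Pathway genes were counted from a list, of which 1 gene is not reported here, and the most alike genes by the rule stated with them. The members and lists were chosen with earlier results of these data known. Replicate numbers were not treated as pairs. Alternatives are given in the closing section.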

Additional observations from a re-analysis of the deposited data

How the results depend on the processing

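Of 181 alternative values, 119 kept their direction, or moved by less than the spread, interval or 1.5-fold limit that applied, 62 moved further and 0 reversed direction. For the difference in number of peaks only the direction was judged. A fall from 8.33 to 2 at Nr4a2, where −log10 q had to reach 10, therefore counts as kept. Within 50 kb the saline lists held 0 peaks at Nr4a1 and Nr4a2 and 2 at Nr4a3, so little could reverse the direction. The difference in number of peaks between kainic acid and saline kept its direction throughout, from 5.33 to 20.0 for Nr4a1, 2 to 10.0 for Nr4a2, 4 to 23.8 for Nr4a3 and 11.7 to 53.8 for all 3. Leaving out 1 library gave 8 to 20.0, 7 to 10.0, 10.8 to 23.8 and 25.8 to 53.8. With 3 libraries a group its exact permutation p cannot go under 0.1. At a reach of 10 kb kainic acid replicate 1 had no peak at Nr4a1, so the groups overlapped there (difference 5.33, exact permutation p = 0.4). With the replicate block the differences were 14.7, 8.33, 18 and 41, and an exact permutation of signs over the 3 pairs gave its smallest p, 0.25, for each. Same-numbered libraries had correlations of deviations in list membership of -0.165, -0.177 and -0.0491, and nothing in the labels ties equal numbers together.

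Shared regions at Nr4a1, Nr4a2, Nr4a3 and all 3 numbered 6, 3, 5 and 14 where −log10 q had to reach 5, and 4, 1, 2 and 7 where it had to reach 10. They numbered 5, 3, 7 and 15 with kainic acid lists cut to nearly equal length (15009, 15298 and 15386 peaks). With all 3 lists required they numbered 4, 2, 6 and 12, and with any list 29, 12, 33 and 74. Merging by summits within 200 bp gave 10, 6, 11 and 27. At a reach of 10 kb, Nr4a1 had 1 and all 3 genes 18, and the strongest region of Nr4a1 then had a mean rank of 30.6%. Leaving out 1 library gave 4 to 10, 3 to 8, 6 to 14 and 13 to 32, the lowest without kainic acid replicate 2 for all 3 genes together. Without replicate 3 the 4 numbers were 4, 3, 7 and 14. Leaving out a saline library left these numbers and the ranks of the strongest regions unchanged, as both are taken from kainic acid lists. The share of protein-coding genes with a shared region was 40.0% at 10 kb, 74.7% at 100 kb, 54.7% and 36.1% at the 2 higher thresholds, 46.6% with equal lists, 60.7% by summits within 200 bp, 42.5% with all 3 lists and 78.0% with any list, and 42.6% to 62.7% without 1 library. The strongest region, chosen anew each time, ranked at 3.66% to 12.7%, 12.2% to 21.7% and 7.34% to 21.9% without 1 library. Which region was strongest therefore depended on the libraries at Nr4a1 and Nr4a3. The 3.66%, without kainic acid replicate 1, belongs to the Nr4a1 region at 101235186 to 101236377, not to the one inside Grasp. At Nr4a3 the region at 47996423 to 47997695 was strongest without kainic acid replicate 2 and without replicate 3 (21.9%). At Nr4a2 it stayed the region at 57138042 to 57140775. The share of shared regions without a saline peak, 100%, was 97.3% where a region in any kainic acid list counted and 100% under its other alternatives, where the short saline lists leave little room for change. Fewer peaks or fewer lists allow fewer shared regions by construction. The comparison of region numbers with other genes was added after seeing the data.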
